A study of Homo sapiens with 12 samples.

Results

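The 30 genes described here encode the enzymes and carriers that take pyruvate, glutamate and aspartate into the tricarboxylic acid (TCA) cycle and turn the cycle. They were taken from a fixed list of names: all 30 were found among the 60623 genes of the deposited count table and all 30 passed the filter on low counts, which left 23684 genes to test. The rule for the list goes by name and uses no measured value, but the list was drawn up with earlier results of these data known.

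RNA sequencing was done in a pair of established human colon cancer cell lines, SW480 and COLO320DM, to look for expression changes that might bear on proliferation when HKDC1 is overexpressed. HKDC1 encodes a hexokinase domain-containing protein of glucose phosphorylation. The 4 groups were SW480 with the pCMV6-HKDC1 plasmid, SW480 with the empty pCMV6-Entry vector, COLO320DM with pCMV6-HKDC1 and COLO320DM with pCMV6-Entry, with 3 libraries each. Each dish received 10 µg of plasmid with Lipofectamine 2000 for 24 h, after which the plasmid medium was exchanged. The CMV promoter of the vector drives expression in the cells that took it up, and their share was not given in the sources used here. Libraries were made from poly-A RNA. The labels do not say whether the 3 libraries of a group came from separate cultures, so p-values measure the spread between these libraries, which may be technical.

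In the mitochondrion the pyruvate dehydrogenase complex turns pyruvate into acetyl-CoA, which citrate synthase joins to oxaloacetate. Successive dehydrogenases then release carbon dioxide and hand electrons to NAD and to complex II, until malate dehydrogenase restores oxaloacetate. Proliferating cells also draw citrate, aspartate and 2-oxoglutarate out of the cycle, and replace them through pyruvate carboxylase and glutamate.

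Totals ran between 33790733 and 45451279 counts per library, and the 30 genes together took 0.394 to 0.452% of them. The plasmid labels held: HKDC1 had 13370 ± 1060 counts per 1000000 library counts (CPM) in SW480 with the HKDC1 plasmid and 35.7 ± 2.34 CPM with empty vector, and 8466 ± 1650 CPM in COLO320DM with the HKDC1 plasmid and 0.0157 ± 0.0136 CPM with empty vector (SD, n = 3 each). With empty vector, EPCAM averaged 517 CPM in SW480 and 1.81 CPM in COLO320DM, CDX2 13.3 CPM in SW480 and 1450 CPM in COLO320DM, and the leukocyte marker PTPRC 0.022 CPM in SW480 and 36.6 CPM in COLO320DM. The epithelial adhesion gene CDH1 had under 0.1 CPM in every COLO320DM library. With empty vector the epithelial marker KRT8 averaged 3748 CPM in SW480 and 135.9 CPM in COLO320DM. KRT18 averaged 2642 CPM in SW480 and 90.17 CPM in COLO320DM, and VIL1 322.7 CPM in SW480 and 9.609 CPM in COLO320DM. KRT20 (1.158 CPM in SW480, 0.8708 CPM in COLO320DM) and LGALS4 (0.1261 CPM in SW480, 0.01571 CPM in COLO320DM) were low in both lines. The leukocyte marker CD3E was near 0 in both lines, at 0.0147 CPM in SW480 and 0.0157 CPM in COLO320DM with empty vector. The 6 neuroendocrine markers summed to 58.7 to 80.3 CPM in the SW480 libraries and 27.4 to 38.4 CPM in the COLO320DM libraries, most of it from ENO2 (62.7 CPM in SW480 and 28.5 CPM in COLO320DM with empty vector), while CHGA and INSM1 had under 1 CPM in every library. Summed levels of the 2 endothelial markers stayed at or below 1.14 CPM and those of the 3 fibroblast markers at or below 10.02 CPM. In such bulk libraries a change in the mix of cells and a change in RNA per cell cannot be told apart. Replicate 1 stood apart from replicates 2 and 3 in every group, and results that rest on it are given with and without it.

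NRF1, a transcription factor of nuclear genes for mitochondrial proteins, is known to bind a palindrome-like site, written here as GCGCA and GCGC with any 1 base between them. The 250 bases before the gene start, from RefSeq (GRCh38.p14), were held for 28 of the 30 genes (not for OGDH and SDHC) and were searched on both strands for 4 motifs whose matches may overlap. The NRF1 motif was found in 7 of 28 members (25.0%), against 5.53% of the 27305 promoters in that table. CCGGAAG (the core of ETS-factor sites) was found in 6 of 28 (21.4%), against 8.82%, CCAAT in 11 of 28 (39.3%), against 33.0%, and the E-box CACGTG only in PDHB (3.57%), against 6.49%. The 7 members with the NRF1 motif were GLUD1, IDH3A, IDH3G, SDHA, SDHD, SLC25A11 and SUCLA2. A match is a description of letters, not a measured binding site. SDHA is shown because it alone held more than 1 match, 4 in all, with first bases at -166, -117, -68 and -19 from the RefSeq gene start. SDHD, IDH3A and SUCLA2 held 1 match each, starting at -110, -10 and -38, and are shown because SDHD and IDH3A were higher in SW480 than in COLO320DM while SUCLA2 was lower. For these 4 genes the RefSeq starts differ from those of the gene models in the count table. The models of SDHA and SDHD start inside the windows, at 218241 and 112086824. The SDHA matches at -68 and -19 thus lie after the start of its counted model. The windows of IDH3A and SUCLA2 lie inside the spans of their models, chr15:78131498-78171945 and chr13:47745736-48037968. Capitals mark the matches to the NRF1 motif on either strand, and each sequence runs 5′ to 3′ on the strand of the gene: SDHA at chr5:218070-218319 (plus strand), SDHD at chr11:112086623-112086872 (plus), IDH3A at chr15:78149112-78149361 (plus) and SUCLA2 at chr13:48001274-48001523 (minus).
SDHA: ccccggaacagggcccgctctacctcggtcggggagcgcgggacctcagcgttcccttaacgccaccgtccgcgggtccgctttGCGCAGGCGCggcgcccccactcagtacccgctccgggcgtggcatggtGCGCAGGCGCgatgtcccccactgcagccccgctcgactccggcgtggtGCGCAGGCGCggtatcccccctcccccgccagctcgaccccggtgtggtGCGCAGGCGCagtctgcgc
SDHD: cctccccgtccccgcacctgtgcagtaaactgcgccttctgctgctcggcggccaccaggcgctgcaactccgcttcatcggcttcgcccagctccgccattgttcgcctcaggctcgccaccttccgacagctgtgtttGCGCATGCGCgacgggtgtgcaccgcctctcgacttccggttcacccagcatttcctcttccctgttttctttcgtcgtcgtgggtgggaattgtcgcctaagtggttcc
IDH3A: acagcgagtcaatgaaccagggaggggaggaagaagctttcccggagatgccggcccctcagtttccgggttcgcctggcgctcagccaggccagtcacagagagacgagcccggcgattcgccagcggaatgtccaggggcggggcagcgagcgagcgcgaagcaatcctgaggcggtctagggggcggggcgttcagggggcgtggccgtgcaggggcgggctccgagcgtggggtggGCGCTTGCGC
SUCLA2: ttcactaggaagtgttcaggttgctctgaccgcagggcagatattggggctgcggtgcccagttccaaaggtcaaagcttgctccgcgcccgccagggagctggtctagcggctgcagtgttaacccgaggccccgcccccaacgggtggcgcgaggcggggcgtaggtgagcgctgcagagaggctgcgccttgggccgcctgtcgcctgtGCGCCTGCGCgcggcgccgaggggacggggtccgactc

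Most of the 30 genes differed between the lines. With empty vector, 27 of the 30 differed between SW480 and COLO320DM (edgeR quasi-likelihood test, Benjamini-Hochberg adjusted p under 0.05 over all genes tested), 17 higher and 10 lower in SW480. Across all genes 71.6% passed the same test, 37.3% higher and 34.3% lower, so a call between the lines was the usual outcome for any gene. With the HKDC1 plasmid, 25 members were called, 15 higher and 10 lower, against 70.8% of all genes, 37.4% higher and 33.5% lower. Without replicate 1 in every group, 29 members were called with the HKDC1 plasmid, where 78.5% of all genes passed, and 30 with empty vector, where 79.3% passed. Both comparisons called the same 24 members in the same direction, 15 higher and 9 lower. The share of all genes called in both was not worked out, so this overlap cannot be read as particular to the members. PDHB, PC and GOT1 passed only with empty vector and IDH3G only with the HKDC1 plasmid, and for none of these 4 did the effect of the line differ between the plasmids in the test of that difference (adjusted p of 1). IDH1 and SUCLG1 passed in neither comparison.

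The differences were modest in size. The median size of the log2 fold change between lines with empty vector was 0.52 for the members and 0.86 for all genes tested, and 5 of the 30 members (16.7%) were called with a size of at least 1, against 43.8% of all genes. This comparison was not matched for level. With empty vector each member ranked above at least 53.8% of the genes tested in both lines, by counts scaled for gene length. The signed median was 0.41 for the members and 0.04 for all genes. Libraries of the lines did not overlap in CPM for 26 of the 30 members with empty vector, against 73.2% of all genes, and for 27 with the HKDC1 plasmid, against 75.2%.

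**Figure D1:**
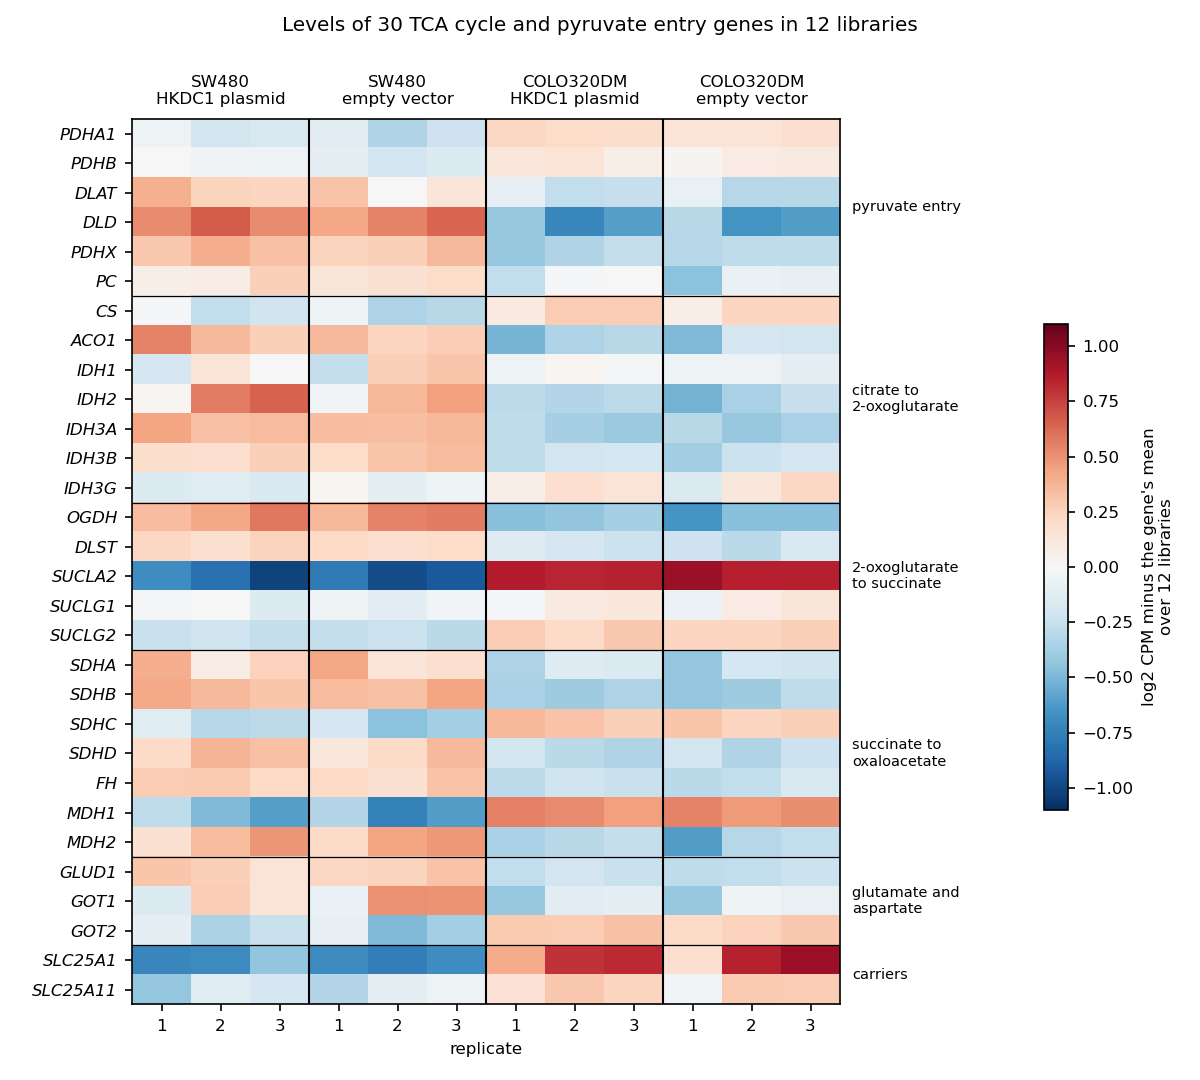
Levels of the 30 genes (rows, by role) in the 12 libraries (columns), coloured by log2 CPM minus the mean of that gene over the 12 libraries. SUCLA2, MDH1 and SLC25A1 stand out as low in all 6 SW480 libraries, and DLD and OGDH as high, while the columns of the HKDC1 plasmid and of empty vector in the same line look alike.

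Of the 6 genes of pyruvate entry, the E1 subunits of pyruvate dehydrogenase were lower in SW480 and the other subunits were higher. PDHA1 and PDHB encode the alpha and beta chains of the E1 enzyme that decarboxylates pyruvate, DLAT the E2 acetyltransferase, PDHX the protein that tethers E3, and DLD the E3 dihydrolipoamide dehydrogenase shared with the 2-oxoglutarate dehydrogenase complex. With the HKDC1 plasmid PDHA1 had 181, 164 and 167 CPM in SW480, against 220.1, 216.5 and 215 CPM in COLO320DM. With empty vector it had 173, 149.8 and 161 CPM in SW480, against 209, 209 and 214 CPM in COLO320DM. Every SW480 library was below every COLO320DM library, and the log2 fold change was -0.35 with the HKDC1 plasmid and -0.38 (SE 0.0809, adjusted p = 0.000815) with empty vector. For PDHB the change was -0.14 with the HKDC1 plasmid (adjusted p = 0.0825) and -0.23 with empty vector (adjusted p = 0.0111). The PDHB call with empty vector was lost without the filter on low counts (adjusted p = 0.065) and when only the 2 groups compared were fitted (adjusted p = 0.066).

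DLD showed the largest rise among all members. It had 207, 229.5 and 207 CPM in SW480 with the HKDC1 plasmid, against 109, 87.8 and 94.75 CPM in COLO320DM with that plasmid. In the empty-vector libraries it had 194, 211.5 and 225 CPM in SW480, against 117, 91.5 and 94.6 CPM in COLO320DM. The lowest SW480 library was well above the highest COLO320DM library, and the log2 fold change was 1.15 (SE 0.115, adjusted p = 1.13e-06) with the HKDC1 plasmid and 1.06 (SE 0.115, adjusted p = 2.34e-06) with empty vector. On the log2 scale DLAT rose by 0.49 with the HKDC1 plasmid and 0.38 with empty vector, and PDHX by 0.68 with the HKDC1 plasmid and 0.58 with empty vector. PC encodes pyruvate carboxylase, which makes oxaloacetate directly from pyruvate. It had 37.9, 38.4 and 43.35 CPM in SW480 with the HKDC1 plasmid, against 30.05, 35.75 and 36.2 CPM in COLO320DM with that plasmid. With empty vector PC had 39.8, 40.7 and 41.6 CPM in SW480, against 26.5, 34.4 and 34 CPM in COLO320DM. The lines did not overlap under either plasmid, but the log2 fold change passed the test with empty vector and not with the HKDC1 plasmid: it was 0.23 with the HKDC1 plasmid (adjusted p = 0.086) and 0.36 with empty vector (adjusted p = 0.011). With the HKDC1 plasmid it passed when empty-vector replicate 1 of COLO320DM was left out of the fit (0.23, adjusted p = 0.039).

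From citrate to 2-oxoglutarate, 4 of 7 members were called higher in SW480 under both plasmids: ACO1, IDH2, IDH3A and IDH3B. Of all genes 37.3% were called higher with empty vector and 37.4% with the HKDC1 plasmid. CS, which encodes citrate synthase, was lower, by a log2 fold change of -0.38 with the HKDC1 plasmid and -0.41 with empty vector. ACO1, the cytosolic aconitase that also acts as an iron sensor, rose by 0.78 with the HKDC1 plasmid and 0.57 with empty vector on the same scale. IDH2 encodes the NADP-dependent isocitrate dehydrogenase of mitochondria and IDH1 that of the cytosol. With the HKDC1 plasmid IDH2 had 90.25, 131 and 139 CPM in SW480, against 72.7, 70.8 and 72.7 CPM in COLO320DM. With empty vector IDH2 had 87, 114.5 and 121 CPM in SW480, against 61.7, 69.1 and 74.6 CPM in COLO320DM. SW480 was higher in every library, least so in replicate 1, with a log2 fold change of 0.65 with empty vector (SE 0.155, adjusted p = 0.002).

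IDH1 passed the test under neither plasmid. It had 116, 146 and 133 CPM in SW480 with the HKDC1 plasmid, against 127, 134 and 130.3 CPM in COLO320DM with that plasmid. Under empty vector it had 109.9, 158 and 163 CPM in SW480, against 127, 127 and 123 CPM in COLO320DM. Replicate 1 of SW480 lay below COLO320DM and replicate 2 above it under both plasmids, so the lines overlapped, and the log2 fold change was 0.01 (adjusted p = 0.941) with the HKDC1 plasmid and 0.20 (adjusted p = 0.2) with empty vector. Leaving out empty-vector replicate 1 of SW480 gave 0.37 with empty vector (adjusted p = 0.00408). The sign with the HKDC1 plasmid turned to -0.09 without HKDC1 replicate 2 of SW480.

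IDH3A, IDH3B and IDH3G encode the subunits of the NAD-dependent isocitrate dehydrogenase of the cycle. IDH3A had 107.5, 99.5 and 101.5 CPM in SW480 with the HKDC1 plasmid, against 65.5, 61.9 and 60.2 CPM in COLO320DM with that plasmid. With empty vector it had 101, 99.98 and 103 CPM in SW480, against 64.6, 59.65 and 62.2 CPM in COLO320DM. The lines were far apart relative to their spread, with a log2 fold change of 0.72 with the HKDC1 plasmid and 0.70 (SE 0.0737, adjusted p = 1.6e-06) with empty vector. The annotated IDH3A model shares 38.22% of its length with ACSBG1 on the opposite strand, which changed by 0.70, and whether counting used strand is not given in the sources used here, so the IDH3A counts are uncertain. IDH3B rose by 0.44 with the HKDC1 plasmid and 0.55 with empty vector. IDH3G went the other way: its log2 fold change was -0.28 with the HKDC1 plasmid (adjusted p = 0.0186) and -0.12 with empty vector (adjusted p = 0.288). With empty vector IDH3G was called at -0.22 (adjusted p = 0.0217) when empty-vector replicate 1 of COLO320DM was left out.

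From 2-oxoglutarate to succinate, the dehydrogenase genes were higher in SW480 and the succinyl-CoA ligase genes were lower or not called. OGDH encodes the E1 enzyme of the 2-oxoglutarate dehydrogenase complex and DLST its E2 enzyme. OGDH had 144, 152 and 170.4 CPM in SW480 with the HKDC1 plasmid, against 82.85, 84 and 88.2 CPM in COLO320DM with that plasmid. In the empty-vector libraries it had 146, 166 and 169 CPM in SW480, against 72.75, 82.9 and 82.6 CPM in COLO320DM. Every SW480 library exceeded every COLO320DM library, and the log2 fold change was 0.87 with the HKDC1 plasmid and 1.01 (SE 0.0943, adjusted p = 4.88e-07) with empty vector. DLST rose by 0.41 with the HKDC1 plasmid and 0.43 with empty vector.

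SUCLA2 showed the largest difference of any member in either direction. It encodes the ADP-forming beta subunit of succinyl-CoA ligase, while SUCLG2 encodes the GDP-forming one and SUCLG1 the alpha subunit that both share. SUCLA2 had 88.1, 80.35 and 70.1 CPM in SW480 with the HKDC1 plasmid, against 258, 253 and 255 CPM in COLO320DM with that plasmid. Under empty vector it had 82.7, 72 and 75 CPM in SW480, against 274, 256 and 257 CPM in COLO320DM. All 6 SW480 libraries were far below all 6 COLO320DM libraries, and the log2 fold change was -1.68 (SE 0.0966, adjusted p = 4.03e-09) with the HKDC1 plasmid and -1.78 (SE 0.0969, adjusted p = 2.31e-09) with empty vector. SUCLG2 had 45.4, 46.2 and 44.75 CPM in SW480 with the HKDC1 plasmid, against 64.7, 62.3 and 65.9 CPM in COLO320DM with that plasmid. With empty vector SUCLG2 had 44.9, 45.52 and 43.7 CPM in SW480, against 63.3, 63.4 and 64.5 CPM in COLO320DM. Its groups were tight and separate, with a log2 fold change of -0.50 with the HKDC1 plasmid and -0.51 (adjusted p = 1.73e-05) with empty vector. SUCLG1 had a log2 fold change of -0.12 with the HKDC1 plasmid (adjusted p = 0.219) and -0.12 with empty vector (adjusted p = 0.229).

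From succinate to oxaloacetate all 7 members were called under both plasmids, 5 higher and 2 lower in SW480. Of all genes 71.6% were called with empty vector and 70.8% with the HKDC1 plasmid, so a call was the usual outcome. SDHA, SDHB, SDHC and SDHD encode succinate dehydrogenase, which is also complex II of the respiratory chain: SDHA carries the flavin, SDHB the iron-sulfur clusters, and SDHC and SDHD anchor the enzyme in the membrane. SDHB had 149, 143 and 138 CPM in SW480 with the HKDC1 plasmid, against 87.1, 85.2 and 88.1 CPM in COLO320DM with that plasmid. With empty vector it had 142, 139.9 and 151 CPM in SW480, against 83.3, 85.2 and 91.8 CPM in COLO320DM. The SW480 libraries were the higher ones throughout, with a log2 fold change of 0.72 with the HKDC1 plasmid and 0.74 (SE 0.0758, adjusted p = 1.35e-06) with empty vector. SDHC, the other anchor beside SDHD, moved the opposite way. It had 97.1, 85.6 and 86.8 CPM in SW480 with the HKDC1 plasmid, against 136.5, 132 and 127 CPM in COLO320DM with that plasmid. With empty vector SDHC had 93.7, 77.6 and 82 CPM in SW480, against 132, 125 and 127 CPM in COLO320DM. Here every SW480 library was the lower one, with a log2 fold change of -0.56 with the HKDC1 plasmid and -0.60 (SE 0.0888, adjusted p = 4.24e-05) with empty vector.

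SDHA rose by 0.46 with the HKDC1 plasmid and 0.53 with empty vector on the log2 scale, and SDHD by 0.58 with the HKDC1 plasmid and 0.49 with empty vector. The counts of both are uncertain. SDHA shares 21.59% of its length with ENSG00000286001 on the same strand, and the pseudogenes SDHAP1, SDHAP4 and SDHAP2 held counts equal to 18.64, 13.19 and 12.92% of those of SDHA. SDHD shares 11.43% of its length with ENSG00000255292 on the same strand. In all, 18 of the 30 members overlap another annotated gene, 9 of them over at least 5% of their length, and their counts carry the same doubt. On the opposite strand PDHA1 shares 21.22% of its length with MAP3K15, GLUD1 12.28% with SHLD2, IDH3G 10.23% with SSR4, PC 8.5% with LRFN4, PDHB 7.63% with ENSG00000272182 and SDHC 5.47% with CFAP126. SSR4 held counts equal to 210.67% of those of IDH3G, and LRFN4 held 106.96% of those of PC and changed by 2.27 between the lines with empty vector. FH, fumarase, rose by 0.51 with the HKDC1 plasmid and 0.48 with empty vector.

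The cytosolic and mitochondrial malate dehydrogenases, MDH1 and MDH2, moved in opposite directions. MDH1 had 293, 254 and 234 CPM in SW480 with the HKDC1 plasmid, against 522, 509.5 and 488 CPM in COLO320DM with that plasmid. In the empty-vector libraries it had 284, 212 and 233 CPM in SW480, against 519.9, 492 and 508 CPM in COLO320DM. The highest SW480 library was far below the lowest COLO320DM library, with a log2 fold change of -0.96 with the HKDC1 plasmid and -1.06 (SE 0.115, adjusted p = 2.3e-06) with empty vector. MDH2 had 416, 470.2 and 519 CPM in SW480 with the HKDC1 plasmid, against 288, 300.2 and 309 CPM in COLO320DM with that plasmid. With empty vector MDH2 had 429.5, 501 and 517 CPM in SW480, against 241, 297 and 306 CPM in COLO320DM. SW480 was the higher line in all libraries, with replicate 1 the lowest in each of the 4 groups, and the log2 fold change was 0.65 with the HKDC1 plasmid and 0.78 (SE 0.117, adjusted p = 4.8e-05) with empty vector.

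Among the genes that connect the cycle with glutamate and aspartate, GLUD1 and GOT1 had higher values in SW480 and GOT2 lower ones. GLUD1, glutamate dehydrogenase, rose by 0.48 with the HKDC1 plasmid and 0.52 with empty vector. GOT2 encodes the mitochondrial and GOT1 the cytosolic aspartate aminotransferase. GOT2 had 285.5, 240.5 and 258.5 CPM in SW480 with the HKDC1 plasmid, against 373, 372 and 383 CPM in COLO320DM with that plasmid. Under empty vector it had 288, 219.5 and 237 CPM in SW480, against 355, 365.5 and 376 CPM in COLO320DM. The SW480 libraries were all lower, with a log2 fold change of -0.52 with the HKDC1 plasmid and -0.56 (SE 0.105, adjusted p = 0.000332) with empty vector. GOT1 had 84.6, 113 and 104 CPM in SW480 with the HKDC1 plasmid, against 70.2, 86.05 and 87 CPM in COLO320DM with that plasmid. With empty vector GOT1 had 88.9, 133 and 132 CPM in SW480, against 70.2, 90.6 and 88.6 CPM in COLO320DM. The lines overlapped, since replicate 1 of SW480 was close to replicates 2 and 3 of COLO320DM, and the change was 0.31 (adjusted p = 0.107) with the HKDC1 plasmid and 0.50 (adjusted p = 0.014) with empty vector. The GOT1 call with empty vector was lost without replicate 2 of SW480 (0.42, adjusted p = 0.0621), without replicate 3 of SW480 (0.42, adjusted p = 0.0632) and without replicate 1 of COLO320DM (0.39, adjusted p = 0.0657). With the HKDC1 plasmid it was gained without replicate 1 of SW480, at 0.41 when the HKDC1 library was left out (adjusted p = 0.0468) and at 0.30 when the empty-vector library was (adjusted p = 0.0432).

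Both carriers were lower in SW480. SLC25A1 encodes the mitochondrial citrate carrier and SLC25A11 the carrier that exchanges 2-oxoglutarate for malate. SLC25A1 had 35.5, 35.9 and 43.2 CPM in SW480 with the HKDC1 plasmid, against 77.5, 101 and 103 CPM in COLO320DM with that plasmid. With empty vector it had 36, 34.4 and 36.4 CPM in SW480, against 66.5, 105 and 112 CPM in COLO320DM. No SW480 library reached the lowest COLO320DM library, which was replicate 1 under both plasmids, and the log2 fold change was -1.30 with the HKDC1 plasmid and -1.41 (SE 0.173, adjusted p = 7.49e-06) with empty vector. SLC25A11 changed by -0.47 with the HKDC1 plasmid (adjusted p = 0.00207) and -0.34 with empty vector (adjusted p = 0.0152). The call with empty vector was lost without SW480 replicate 1 (-0.26, adjusted p = 0.0637), without COLO320DM replicate 2 (-0.29, adjusted p = 0.0633) and without COLO320DM replicate 3 (-0.29, adjusted p = 0.0585).

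**Figure D2:**
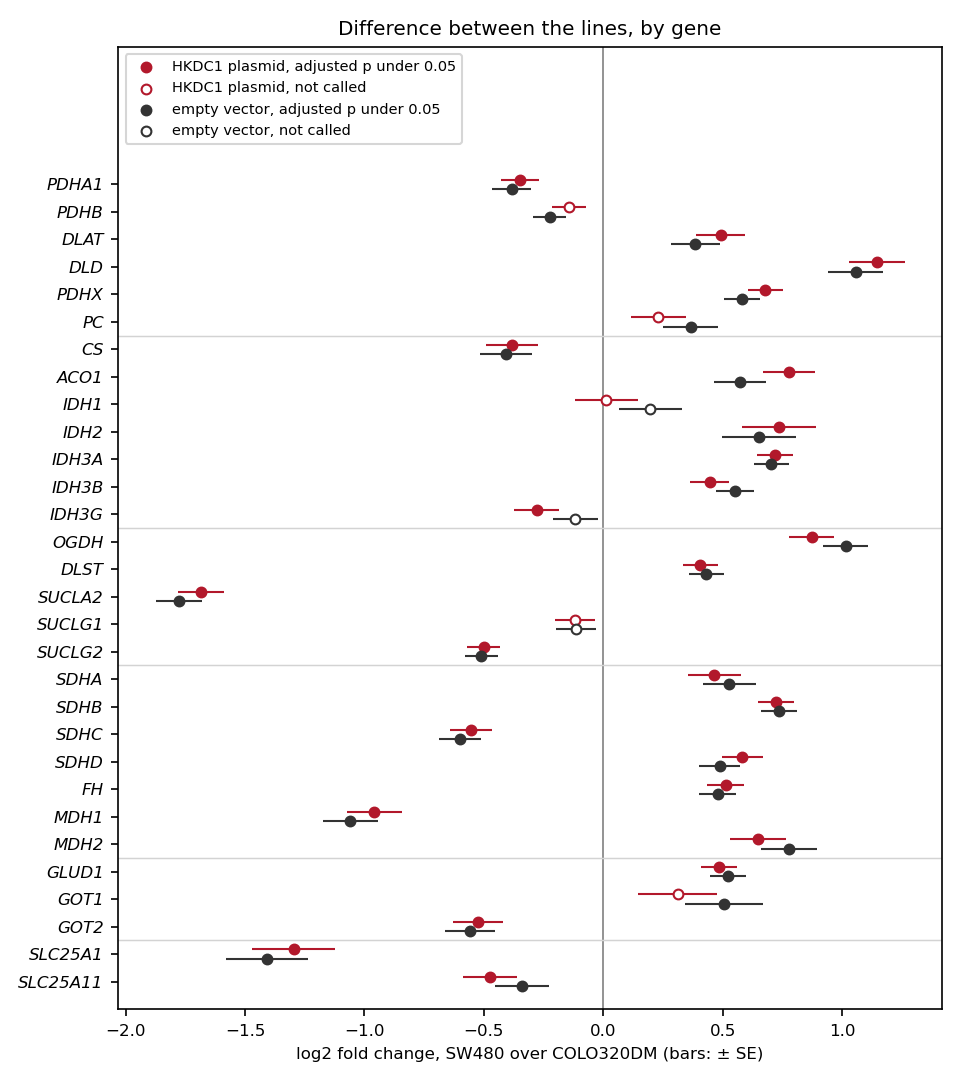
Log2 fold change of SW480 over COLO320DM (x axis, bars ± SE) for each of the 30 genes (y axis, by role), with the HKDC1 plasmid above and empty vector below, filled where the adjusted p was under 0.05. Subunits of the same complex lie on both sides of 0: PDHA1 and PDHB against DLAT, DLD and PDHX, and SDHC against SDHA, SDHB and SDHD.

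Levels of different genes were compared as CPM divided by the deposited gene length in kilobases (RPKM). In SW480 with empty vector MDH2 was the highest member at 132.5 RPKM, followed by FH at 78.2, and in COLO320DM with empty vector MDH1 at 101.5 RPKM, followed by GOT2 at 97.5. ACO1 was the lowest member in both lines, at 4.70 RPKM in SW480 and 3.16 RPKM in COLO320DM, and PC came next at 5.58 RPKM in SW480 and 4.33 RPKM in COLO320DM. The SDHC model counts 14160 bases, the longest of the 4 succinate dehydrogenase genes, so its 5.96 RPKM in SW480 and 9.04 RPKM in COLO320DM are lowered by length relative to SDHB, at 58.7 RPKM in SW480 and 35.2 RPKM in COLO320DM.

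Ratios of paired enzymes within a library do not depend on scaling between libraries. The RPKM ratio of MDH2 to MDH1 was 2.07, 3.24 and 3.04 in SW480 with empty vector, against 0.636, 0.829 and 0.8255 in COLO320DM, a 3.61-fold difference. MDH2 exceeded MDH1 in every SW480 library and was below it in every COLO320DM library. The ratio of SUCLA2 to SUCLG2 was 0.641, 0.55 and 0.597 in SW480, against 1.51, 1.405 and 1.385 in COLO320DM. In RPKM the ADP-forming subunit was thus the lower one in SW480 and the higher one in COLO320DM. The order in SW480 rests on the deposited lengths, 8879 bases for SUCLA2 and 3090 bases for SUCLG2. In counts SUCLA2 was the higher one in every library. Its mean log2 count ratio to SUCLG2 with empty vector was 0.77 in SW480 and 2.04 in COLO320DM. GOT2 over GOT1 was 2.09, 1.07 and 1.16 in SW480, against 3.27, 2.61 and 2.74 in COLO320DM, with GOT2 in excess in both lines and more so in COLO320DM. IDH2 over IDH1 was 1.33, 1.21 and 1.24 in SW480, against 0.816, 0.9155 and 1.015 in COLO320DM. The side of 1 in SW480 rests on the deposited lengths, 2814 bases for IDH2 and 4721 bases for IDH1. In counts IDH1 was the higher one in these SW480 libraries, with a mean log2 count ratio of IDH2 to IDH1 of -0.41. PC over PDHA1 was 0.142, 0.168 and 0.159 in SW480, against 0.07835, 0.101 and 0.0981 in COLO320DM. None of the 5 ratios overlapped between the lines, and the mean log2 difference was 1.85, -1.27, -1.06, 0.47 and 0.76 in the order given. Of all single genes 73.2% did not overlap between the lines with empty vector, and no such share was worked out for other pairs of genes. A two-sided exact permutation test gave p = 0.1 for each, the smallest that 3 against 3 libraries allow, so no ratio could pass 0.05. Between plasmids within a line the 5 ratios gave exact permutation p-values of 0.2 to 0.8.

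**Figure D3:**
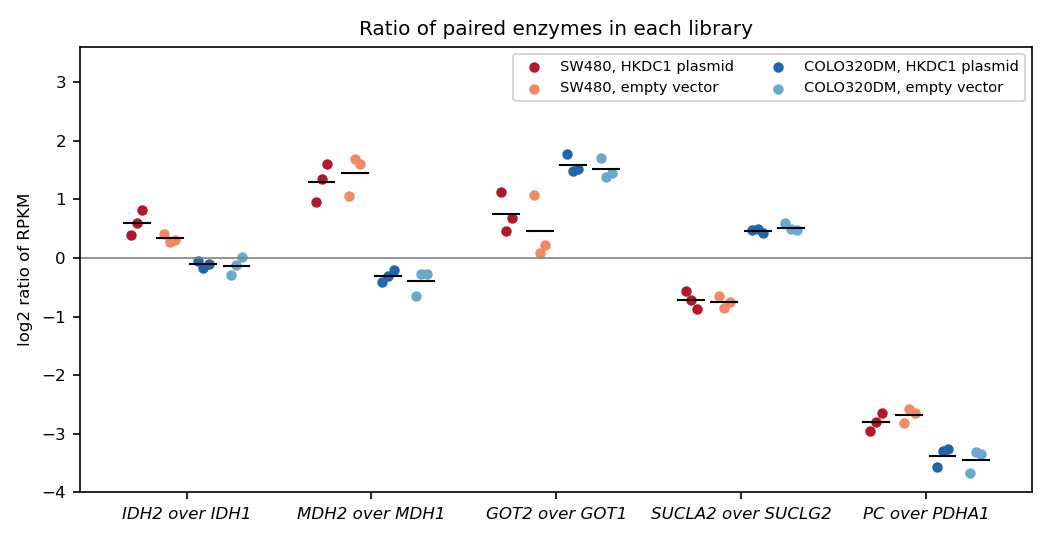
Log2 ratio of RPKM (y axis) for 5 pairs of enzymes in each of the 12 libraries (points, 3 per group, lines at group means). MDH2 over MDH1 lies above 0 in all SW480 libraries and below 0 in all COLO320DM libraries, and SUCLA2 over SUCLG2 the reverse. For SUCLA2 over SUCLG2 the side of 0 in SW480 depends on gene length, and in counts SUCLA2 was higher in every library. The side of 0 for IDH2 over IDH1 in SW480 with empty vector also depends on gene length, and in counts IDH1 was higher there.

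The difference of a member between the lines went along with that of its chromosome and of its neighbours there. For each member the median log2 fold change of the tested genes within 1000000 bases on either side, genes that overlap it left out, was set beside its own. Across the 30 members Pearson's r was 0.713 and Spearman's rho 0.632, and against the median of the whole chromosome they were 0.715 and 0.678. Members on 1 chromosome share neighbours, so these are descriptions without a test. The sign matched that of the whole chromosome's median for 25 of 30 members and that of the neighbours within the window for 21. The same shares and correlations were not worked out for all genes tested, so these values cannot be read as particular to the members. IDH1, at 0.20, was 1 of the exceptions among neighbours, with 8 of 8 lower in value in SW480. SUCLA2, on chromosome 13 (chr13:47745736-48037968, minus strand, GRCh38), had 12 such neighbours with a median of -1.51, 8 of them lower in SW480. All 23 neighbours of GOT2 on chromosome 16 had lower values in SW480, with a median of -0.88. For SDHC on chromosome 1, 32 of 40 neighbours had lower values, with a median of -0.66, while for MDH2 on chromosome 7, 41 of 48 had higher values, with a median of 1.06. DLD, OGDH and MDH2 all lie on chromosome 7, whose median was 0.85. MDH1 and IDH3A were among the members that differed from their surroundings: MDH1 had neighbours with a median of -0.07, and IDH3A, itself at 0.70, had neighbours at -0.37. Like IDH1 and IDH3A, the members ACO1, FH, GOT1, IDH3G, PDHB, SLC25A11 and SUCLG1 had the opposite sign to the median of their neighbours. DLAT and SDHD lie 22433 bases apart on chromosome 11 and share most of their neighbours.

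**Figure D4:**
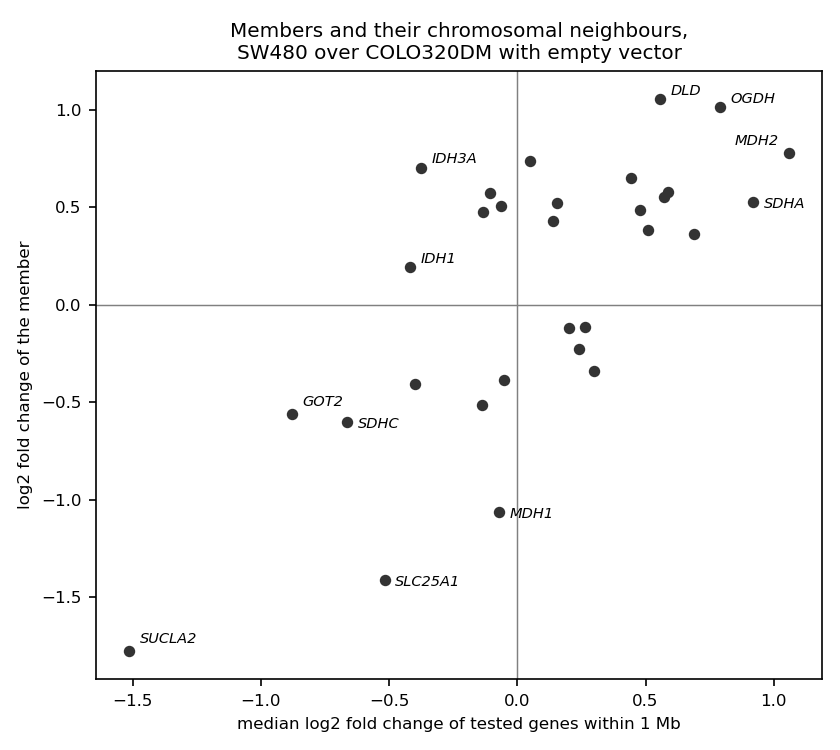
Log2 fold change of each of the 30 members between SW480 and COLO320DM with empty vector (y axis) against the median of the tested genes within 1000000 bases of it (x axis). SUCLA2 and GOT2 lie at the lower left and DLD, OGDH and MDH2 at the upper right, while MDH1 and IDH3A are among the members that lie away from the diagonal.

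The HKDC1 plasmid left no member called in either line. In SW480, 0 of 30 members passed edgeR's test, where 0.0127% of all genes did. None reached an unadjusted p of 0.05 in edgeR (0 of 30), where 1.5% of all genes did. The DESeq2 and limma-voom fits called 0 as well. The median log2 fold change was 0.03, with 20 members above 0 and 10 below, within -0.23 to 0.16 and with SEs of 0.0688 to 0.172. In COLO320DM, 0 of 30 passed, where 0.00844% of all genes did. There 0 had an unadjusted p under 0.05, against 1.32% of all genes, and DESeq2 and limma-voom called 0. There the median was 0.03, with 21 members above 0 and 9 below, within -0.10 to 0.11. For the difference between the lines in the plasmid effect 0 of 30 passed, against 0.00844% of all genes, and 0 by DESeq2 or limma-voom. Again 0 had an unadjusted p under 0.05, against 1.6% of all genes. With shares this small over all genes, counts of 0 cannot be read as particular to the members.

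PDHB had the smallest p in SW480. It had 75.9, 73.5 and 73 CPM with the HKDC1 plasmid, against 70.4, 65.4 and 68.2 CPM with empty vector. The groups did not overlap, but the log2 change of 0.12 (SE 0.0704) gave an adjusted p of 1 in edgeR. IDH3G was the other member of the 30 whose SW480 groups did not overlap, at 56.5, 57.25 and 55.95 CPM with the HKDC1 plasmid, against 63.55, 58.1 and 60.7 CPM with empty vector. Non-overlap of that kind was found for 4.45% of all genes. In COLO320DM it was found for PDHA1 only, against 7.74% of all genes, with 220.1, 216.5 and 215 CPM with the HKDC1 plasmid and 209, 209 and 214 CPM with empty vector. OGDH had the smallest p there, at a log2 change of 0.10 (SE 0.0937, adjusted p of 1), and ACO1 the smallest for the difference between lines, at 0.21 (SE 0.154, adjusted p of 1).

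Same-numbered libraries of a line deviated together, so the plasmid effect was also read within pairs, although replicates 2 and 3 deviated as much with each other's number as with their own and replicate 1 alone stood apart by number. With the replicate number as a block edgeR called 0 of 30 members in SW480, where 0.76% of all genes passed, and 4 members (13.3%) had an unadjusted p under 0.05, against 9.96% of all genes. In COLO320DM the block gave 0 of 30, against 0.076% of all genes, and for the difference between lines 0 of 30, against 0.0422%. GOT1 came nearest in SW480. Its HKDC1 libraries had 84.6, 113 and 104 CPM, against 88.9, 133 and 132 CPM in the empty-vector libraries. The HKDC1 library was the lower one in 3 of 3 pairs, by -0.071, -0.237 and -0.339 on the log2 scale, although the groups overlapped because replicate 1 was low under both plasmids. The blocked log2 change was -0.22 (SE 0.0586, adjusted p = 0.0696 in edgeR). In COLO320DM the pairs of GOT1 differed by 0.001, -0.074 and -0.027.

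Without replicate 1 in every group, edgeR called 2 of 30 members lower with the HKDC1 plasmid in SW480, where 3.03% of all genes passed: GOT1 (-0.30, adjusted p = 0.00208) and IDH1 (-0.225, adjusted p = 0.0315). IDH1 had 116, 146 and 133 CPM with the HKDC1 plasmid, against 109.9, 158 and 163 CPM with empty vector, so that the HKDC1 library was higher in pair 1 and lower in pairs 2 and 3. The difference between the lines in that effect was not called for GOT1 (-0.26, adjusted p = 0.312) or IDH1 (-0.31, adjusted p = 0.145). Without replicate 1, 0 of 30 members were called for that difference, where 0.316% of all genes passed, and 0 of 30 in COLO320DM, where 0.0337% passed. With the replicate block and without pair 1, a fit chosen after the data were seen, GOT1 was the 1 member called in SW480 (-0.31, adjusted p = 0.00983), where 2.29% of all genes passed, 0 members in COLO320DM, where 0.0505% passed, and 0 for the difference between lines, where 0.206% passed.

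Across same-numbered pairs in SW480, 8 members were higher with the HKDC1 plasmid in 3 of 3, 4 were lower in 3 of 3 and 18 were mixed, and 29.9% of all genes kept 1 sign in 3 of 3. The 8 were CS, DLAT, IDH2, MDH1, PDHA1, PDHB, SDHC and SUCLG2, and the 4 were GOT1, IDH3B, IDH3G and SLC25A11. In COLO320DM 7 were higher in 3 of 3, 2 were lower and 21 were mixed, against 27.9% of all genes with 1 sign. PDHA1 and CS were on the higher side in 3 of 3 pairs of both lines.

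**Figure D5:**
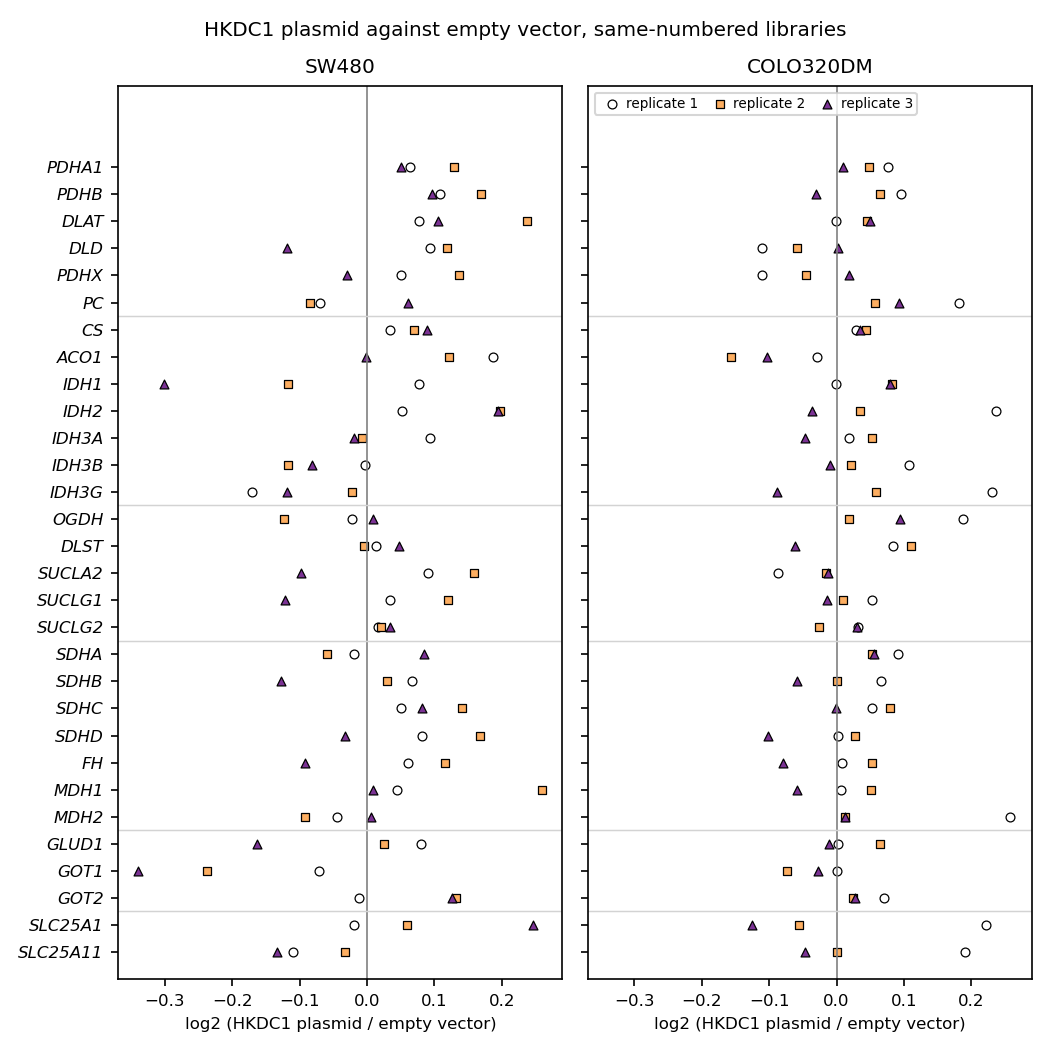
Log2 ratio of CPM, HKDC1 plasmid over empty vector, in same-numbered libraries (x axis) for each member (y axis), with SW480 on the left and COLO320DM on the right and 1 symbol per replicate. Points scatter on both sides of 0 for most genes, and GOT1 in SW480 lies left of 0 in 3 of 3 pairs.

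Replicate 1 differed from replicates 2 and 3 in ways that recurred under both plasmids. In SW480 it was the lowest of 3 under both plasmids for 10 members, among them IDH1, IDH2, GOT1 and MDH2, and the highest for 10 others, among them CS, MDH1, GOT2 and SDHA. In SW480 replicate 1 departed from the mean of replicates 2 and 3 for GOT1 by -0.358 with the HKDC1 plasmid and -0.575 with empty vector on the log2 scale, and for IDH2 by -0.58 with the HKDC1 plasmid and -0.436 with empty vector. These departures exceeded the plasmid effect on any member in that line. In COLO320DM replicate 1 was the lowest under both plasmids for 15 members and the highest for 7, with SLC25A1 departing most, by -0.397 with the HKDC1 plasmid and -0.707 with empty vector. The share of counts from genes of the mitochondrial genome was also highest in replicate 1 of every group. In SW480 it was 7.17, 6.48 and 6.42% with the HKDC1 plasmid and 7.41, 6.34 and 6.32% with empty vector, and in COLO320DM it was 9.40, 7.59 and 7.61% with the HKDC1 plasmid and 8.91, 7.80 and 7.63% with empty vector. Its part in the results was not tested.

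Of 37 further genes of the pathway, a list of regulators, transporters, assembly factors and side enzymes, 36 could be tested. Between the lines 13 were higher and 12 lower in SW480 with empty vector, and 14 were higher and 14 lower with the HKDC1 plasmid. That is 77.8% of the list with the HKDC1 plasmid, against 70.8% of all genes, and 69.4% with empty vector, against 71.6%. The kinases that switch pyruvate dehydrogenase off by phosphorylation, PDK1 to PDK4, and the phosphatases that switch it on, PDP1 and PDP2, moved in both directions. PDK3 had 283, 155 and 151.5 CPM in SW480 with the HKDC1 plasmid, against 30.2, 23.15 and 19.2 CPM in COLO320DM with that plasmid. With empty vector PDK3 had 273, 128 and 116 CPM in SW480, against 28.9, 21 and 19.9 CPM in COLO320DM. SW480 was several times higher throughout, most of all in replicate 1, with a log2 fold change of 3.02 with the HKDC1 plasmid and 2.89 with empty vector. PDP1 was higher in SW480 by 4.26 with the HKDC1 plasmid and 4.17 with empty vector. Lower in SW480 were PDK4 (-3.54 with the HKDC1 plasmid and -3.35 with empty vector), PDK2 (-1.47 with the HKDC1 plasmid and -1.40 with empty vector), PDP2 (-1.76 with the HKDC1 plasmid and -1.68 with empty vector) and PDPR, a regulatory subunit of the phosphatase (-1.03 with the HKDC1 plasmid and -1.10 with empty vector).

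PDK3 was the sole gene of the wider list called for the plasmid with the replicate block, and none was called without the block (0 of 36 in either line). In SW480 the HKDC1 libraries had 283, 155 and 151.5 CPM, against 273, 128 and 116 CPM in the empty-vector libraries. Replicate 1 was far above the others under both plasmids, so the groups overlapped, while the HKDC1 library was the higher one in 3 of 3 pairs. Without a block the log2 change was 0.19 (SE 0.319) with an adjusted p of 1, and with the replicate block it was 0.24 (SE 0.0601, adjusted p = 0.0486 in edgeR), where 1 of the 36 genes was called against 0.76% of all genes. Without replicate 1 in every group it was 0.31 (adjusted p = 0.00554). The sign of the unblocked change turned without HKDC1 replicate 1 (-0.17) and without empty-vector replicate 3 (-0.03). The difference between the lines in the effect on PDK3 was not called with the block (0.18, adjusted p = 0.656).

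Of the wider list's genes of glutamine use, SLC1A5 and GLS2 were higher in SW480. SLC1A5, a glutamine transporter of the plasma membrane, had 1921, 1840 and 1854 CPM in SW480 with empty vector, against 170.4, 209.6 and 220.2 CPM in COLO320DM, a log2 fold change of 3.23. GLS2, a glutaminase, had 51.3, 55.25 and 54 CPM in SW480 with empty vector, against 4.95, 5.39 and 5.485 CPM in COLO320DM, a change of 3.34. The lines were far apart for both. SLC25A13, a mitochondrial carrier of aspartate and glutamate, rose by 1.85 with the HKDC1 plasmid and 1.86 with empty vector, and SDHAF3, an assembly factor of succinate dehydrogenase, by 1.88 with the HKDC1 plasmid and 1.72 with empty vector.

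ME1 and ME3 encode malic enzymes, which turn malate into pyruvate. ME1, the cytosolic one, had 57.6, 77 and 78.8 CPM in SW480 with empty vector, against 0.0236, 0.0715 and 0.0463 CPM in COLO320DM, where no library held more than 3 counts. ME3, a mitochondrial one, was lower (-1.88 with the HKDC1 plasmid and -1.82 with empty vector). OGDHL, which resembles OGDH, was lower in SW480 (-2.94 with the HKDC1 plasmid and -2.75 with empty vector), the reverse of OGDH itself. D2HGDH, which oxidises D-2-hydroxyglutarate, was lower as well (-1.46 with the HKDC1 plasmid and -1.36 with empty vector). GPT and PCK1 were also called with a size of at least 1, but at no more than 1.11 CPM in any library.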

How the data were processed

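RNA was sequenced from 12 libraries (4 groups of 3). The deposited table holds raw counts per gene with a gene length. Per the submitters' processing notes, HISAT2 2.1.0, limma and the build GRCh38 were used; the counting tool, annotation release and strand setting are not given in the sources used here. Library columns were matched to samples by the library names in the labels. Symbols and positions came from GENCODE on GRCh38, and 60295 of 60623 rows had a symbol.

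The 23684 genes that passed filterByExpr (minimum count 10, minimum total 15) were fitted in edgeR 4.0.16 (R 4.3.3) with TMM scaling, 4 group means and the quasi-likelihood test, adjusted by Benjamini-Hochberg over all of them, called under 0.05. CPM use TMM-scaled library sizes. The fit was also tested on simulated data, drawn from the means and spread of the main fit and without the departure of replicate 1. Alternatives were DESeq2 size factors, no filter, DESeq2 1.42.0, limma-voom (limma 3.58.1), a replicate block, the compared groups alone, and libraries left out.

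The replicate number was taken to pair plasmids within a line: deviations of same-numbered libraries from their group means correlated at 0.723, 0.436 and 0.313 in SW480 and 0.403, 0.134 and 0.119 in COLO320DM over all genes tested, each above 0.1. Replicates 2 and 3 correlated as much with the other number (0.467 and 0.369 in SW480, 0.16 and 0.15 in COLO320DM), so that only replicate 1 stood apart by its number. Across lines they correlated at 0.022 to 0.154. Enzyme ratios used an exact permutation test. Values were given per library for members called for the plasmid in either line, for the 5 called members with the largest rise and the 5 with the largest fall between lines, and for the members of the enzyme pairs. Other pathway genes were named where called with a log2 size of at least 1 in both line comparisons. The members and lists were chosen with earlier results of these data known. A few genes of the wider lists are not reported here.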

Additional observations from a re-analysis of the deposited data

How the results depend on the processing

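The counts of members called held across normalisation, filter, tool, replicate block, the compared groups alone and left-out libraries, with these exceptions. For the plasmid in SW480, the count was 0 as reported, 2 without replicate 1 in all groups and 1 with the replicate block and pair 1 left out (GOT1, -0.31, adjusted p = 0.00983, where 2.29% of all genes passed; this fit was chosen after seeing the data), and leaving out single libraries gave 0. In COLO320DM and for the difference between lines it was 0 throughout. Between the lines, the count was 26 to 30 with empty vector (27 as reported, 30 without replicate 1, where 79.3% of all genes passed) and 25 to 29 with the HKDC1 plasmid (25 as reported, 29 without replicate 1, where 78.5% passed). Replicate numbers did not pair the libraries across lines; a replicate block gave 27 members with the HKDC1 plasmid and 27 with empty vector, where 75.7 and 76.3% of all genes passed, adding with the HKDC1 plasmid PC (0.23, adjusted p = 0.0218) and GOT1 (0.31, adjusted p = 0.00137). Signs turned when 1 library was left out for IDH1 between the lines with the HKDC1 plasmid (-0.087 without HKDC1 replicate 2 of SW480, -2e-04 without empty-vector replicate 1 of SW480, -0.0084 without HKDC1 replicate 1 of COLO320DM, and up to 0.087 over the libraries left out) and for PDK3 with the plasmid in SW480 (-0.17 without HKDC1 replicate 1, and up to 0.67); the cause was not tested. The log2 differences of the enzyme ratios stayed within 1.72 to 2.05 for MDH2 over MDH1, -1.32 to -1.21 for SUCLA2 over SUCLG2, -1.36 to -0.88 for GOT2 over GOT1, 0.35 to 0.55 for IDH2 over IDH1 and 0.65 to 0.83 for PC over PDHA1. Members held 812 to 23501 counts per library; whether depth or the number of libraries limited the calls was not tested.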

Other observations

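Among the wider list, 2 genes outside the enzymes described above showed the departure of replicate 1 in SW480 most plainly, and they are named here after their values were seen. PCK2, mitochondrial phosphoenolpyruvate carboxykinase, had 41.6, 97.2 and 102 CPM with the HKDC1 plasmid and 41.96, 116.5 and 118.6 CPM with empty vector. GPT2, mitochondrial alanine aminotransferase, had 105.9, 189 and 191.5 CPM with the HKDC1 plasmid and 111.2, 189.4 and 194.8 CPM with empty vector. In both, replicate 1 was the low library under each plasmid. In COLO320DM PCK2 had 134.9, 156.9 and 168.2 CPM with the HKDC1 plasmid and 112.8, 159 and 156.4 CPM with empty vector, and GPT2 had 96.5, 98.8 and 102.2 CPM with the HKDC1 plasmid and 93.2, 104 and 98.4 CPM with empty vector. Replicate 1 of COLO320DM was the lowest for both genes as well, by a smaller margin.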
